A study of Homo sapiens with 6 samples.

Results

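The annexins are a family of calcium-dependent membrane-binding proteins, and 10 of their genes were followed here: ANXA1, ANXA2, ANXA3, ANXA4, ANXA5, ANXA6, ANXA7, ANXA8, ANXA10 and ANXA11. They were taken by name from the authors' table of 1 comparison, and each is represented by 1 RefSeq transcript accession, chosen by its base mean as the highest of the gene. The family itself was proposed with the fold changes of this comparison in view. The 10 genes hold 29 of the 67933 accessions of that table, and 6 of the 10 carry an adjusted p. The cells were U87, an established human glioblastoma line. One group of 3 libraries is labelled EGFR+vIII, for the epidermal growth factor receptor together with its constitutively active deletion mutant vIII, and the other group of 3 is labelled EGFR+vIII TLR2 KO. Both groups therefore carry EGFR and vIII, and they differ by the knockout of TLR2, a cell surface receptor of innate immunity. Whether the knockout cells are a single clone or a pool, and whether its libraries are separate cultures, is not given in the sources used here, so each p rests on library-to-library spread that may be technical only.

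Each annexin has a core of repeated helical segments that bind calcium on one face and acidic phospholipids such as phosphatidylserine through it, and a variable N-terminal tail that binds partner proteins. Annexins are known for sealing torn plasma membranes, for linking membranes to actin and to vesicles, and, on the cell surface or after secretion, for roles in inflammation and in plasmin formation. Several annexins are abundant in gliomas, where ANXA1, ANXA2 and ANXA5 have been studied for invasion and for the clearance of dying cells.

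The table holds fold changes and no value per library, so the level of a gene is given as its base mean, which averages the size-factor-normalized reads of all 6 libraries. The base means sum to 11240272 normalized reads, the size factors derived from single reads run from 0.928 to 1.07, and 10303 accessions carry an adjusted p. Every fold change is read with the knockout on top, since the name of the table puts it first. TLR2 itself cannot check that direction or the label: its 8 accessions in the authors' deposited table are all listed at 0. EGFR has 9 accessions and a highest base mean of 1.32 in the same deposited table. Fibroblast and mesenchymal markers had 3 of 6 tested genes lower and 0 higher, and epithelial markers had 2 of 4 tested genes higher, KRT5 and KRT14, with CDH1 at 0, by the authors' deposited table. The base means of the 8 epithelial markers sum to only 54.3, and 0 of them reached a base mean of 100. Leucocyte markers had 5 of 8 genes at 0 and no tested gene called. Glioma and astrocyte markers had 2 of 7 tested genes higher, CHI3L1 (3.01 on the log2 scale, SE 0.24) and NES (1.01, SE 0.12), and 2 lower, SOX2 (-2.45, SE 0.30) and VIM (-0.29, SE 0.08), by the authors' deposited table. SOX9 was not called, and 5 of the 12, GFAP and S100B among them, were listed at 0. The shares of all tested accessions called were 11.6% higher and 11.9% lower. The part of these markers in the annexin results was not tested.

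The calcium-binding loops of the annexin core are shown first, because ANXA10 had the fewest of the 10 members, and they are given for ANXA10, ANXA1 and ANXA5, on which the results turn. A common form of the loop is encoded as glycine, any residue, glycine, threonine, which in DNA reads GGNNNNGGNACN. This motif was searched in frame in the coding sequences of GENCODE 29, on the coding strand only. Each line gives the gene, the codon at which the motif starts (counted from 1 at the start codon), and the sequence 5′ to 3′, with the motif in capitals and 9 bases on either side.
ANXA1, codon 129: gccatgaagGGCCTTGGAACTgatgaagat
ANXA1, codon 288: gccatgaaaGGTGTTGGAACTcgccataag
ANXA5, codon 30: gctatgaaaGGCTTGGGCACAgatgaggag
ANXA5, codon 102: gccttgaagGGAGCTGGAACAaatgaaaaa
ANXA5, codon 261: gctatgaagGGAGCTGGGACAgatgatcat
ANXA10, codon 104: gccatgaagGGAGTAGGCACTgatgagaat
ANXA10 had 1 in-frame match, ANXA1 and ANXA2 had 2 each, ANXA3, ANXA4, ANXA5, ANXA7 and ANXA8 had 3 each, ANXA11 had 4 and ANXA6, whose core is duplicated, had 5. At least 1 in-frame match was present in 2787 of 19517 protein-coding genes (14.3%) and at least 3 in 104 (0.533%). ANXA10 is described in textbooks as an annexin that has lost most of its calcium sites. A match is a description of the letters and not a measured calcium site.

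RefSeq gives some members 1 accession and others several. The 4 members with 1 accession are ANXA1, ANXA3, ANXA5 and ANXA10, and the 6 members with several are ANXA2, ANXA4, ANXA6, ANXA7, ANXA8 and ANXA11. Among the first, the base mean was 61134 for ANXA1, 32432 for ANXA5, 131 for ANXA10 and 0.180 for ANXA3 in the authors' deposited table. No member with several accessions passed a base mean of 214, the value of ANXA2 in the authors' deposited table. Of the 29 member accessions, 19 were listed at 0, 10 were above 0 and 7 carried an adjusted p. Counting error alone would allow 3 reads over the 6 libraries, a base mean of 0.495, and the rule for reads that fit several accessions of a gene is not given in the sources used here. A listing at 0 or near it is therefore not read as absence of the gene.

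**Figure D1:**
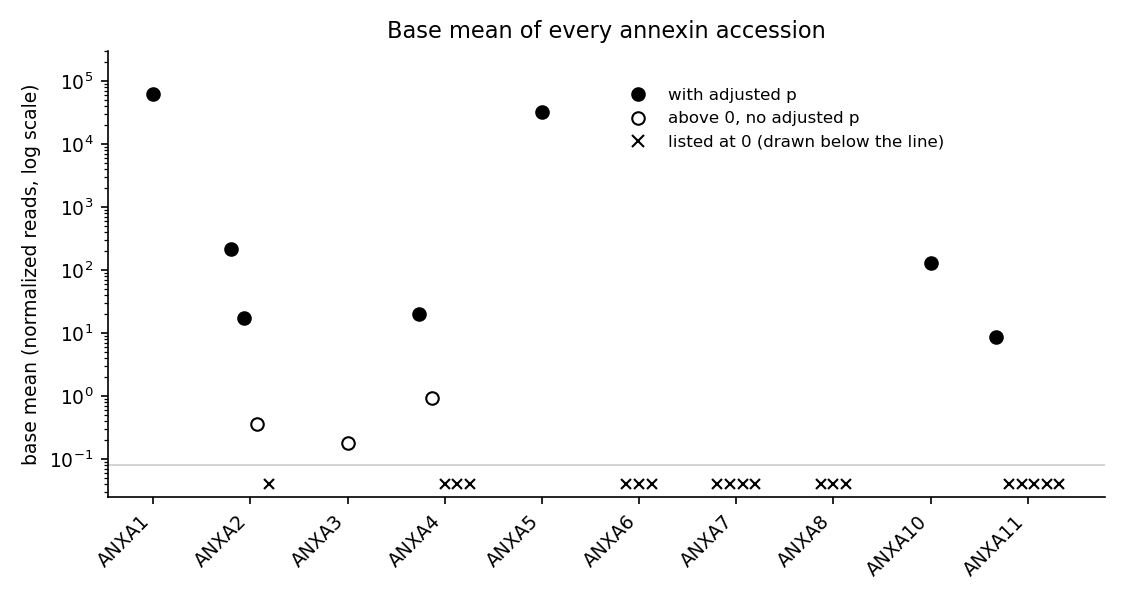
Base mean (normalized reads, log scale) of every accession of the 10 annexin genes in the authors' deposited table; filled points carry an adjusted p, open points are above 0 without one, and crosses below the line are listed at 0. ANXA1 (61134) and ANXA5 (32432) stand above all others, and ANXA6, ANXA7 and ANXA8 are listed at 0 in every accession.

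Among the 6 members with an adjusted p, 1 was called higher (ANXA1), 1 was called lower (ANXA10) and 4 were not called at an adjusted p under 0.05 in the authors' deposited table. Over the whole table, 23.5% of the 10303 tested accessions were called, 11.6% higher and 11.9% lower, and 3.31% were called with at least a 2-fold rise and 3.15% with at least a 2-fold fall. ANXA10 is the 1 member past 2-fold. The members were proposed with this comparison in view, so their count is a description and nothing is read from its size. The median log2 change of the 6 was 0.07, and that of all tested accessions was 0.02.

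ANXA1 encodes a mediator of glucocorticoid action that restrains phospholipase A2 and signals through formyl peptide receptors to end inflammation. It lies on chromosome 9 (73151865 to 73170393, GRCh38). Its base mean of 61134 and its log2 change of 0.68 (SE 0.08) by the authors' deposited table correspond to about 46904 normalized reads in EGFR+vIII and 75364 in the knockout. These group levels were computed from the deposited base mean and fold change for groups of equal size, and have no error of their own. The fold was 1.61, with a 95% interval of 1.44 to 1.79 from the SE, and the adjusted p of the authors' deposited table was 1.22e-16. Against a change of more than 1.5-fold ANXA1 did not pass, with an adjusted p of 1 computed from the authors' DESeq2 values. None of the 1460 words of 50 bases in the ANXA1 transcript occurs in a transcript of another gene of GENCODE 29, so reads of that length could be placed on ANXA1 alone.

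ANXA10 encodes an annexin best known from stomach and bladder epithelium, with little calcium-dependent activity of its own. It lies on chromosome 4 (168092537 to 168187736, GRCh38). With a base mean of 131 and a log2 change of -2.51 (SE 0.25) by the authors' deposited table, it corresponds to about 223 normalized reads in EGFR+vIII and 39.2 in the knockout. The level was 5.70-fold lower, with a 95% interval of the log2 change of -3.01 to -2.01. The adjusted p of the authors' deposited table was 2.99e-21. ANXA10 had the 14th lowest log2 fold change among the 9370 matched genes with an adjusted p. ANXA3, with 1 read in all, is given a log2 change of 0.04 with an SE of 0.14 in the authors' deposited table. The largest SE of the whole deposited table is 0.382. Fold changes there are thus drawn towards 0 by the authors' fit, strongly so for genes with few reads. The folds, intervals and group levels given for the members, and the 1.5-fold tests, rest on such values. The summed level of the 8 epithelial markers, from the deposited base means and fold changes, was 45.9 normalized reads in EGFR+vIII and 62.7 in the knockout, with EPCAM at 24.1 and 20.7, KRT5 at 4.51 and 16.1 and CDH1 at 0. The fibroblast and mesenchymal list went in the same sum from 24309 to 10996, with 0 of its 8 genes at 0. Only 3 of the 8 had a base mean of at least 100. The median log2 change of its 6 tested genes was -0.37, and 3 of them were not called. The part of either list in the ANXA10 result was not tested. In bulk RNA, fewer cells of a type and less RNA per cell cannot be told apart.

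ANXA5, the phosphatidylserine-binding protein used to stain dying cells, lies on chromosome 4 (121667946 to 121696980, GRCh38). Its log2 fold change was -0.08 (SE 0.07, adjusted p = 0.538) by the authors' deposited table at a base mean of 32432. The group levels computed as for ANXA1 were 33285 normalized reads in EGFR+vIII and 31579 in the knockout. The 95% interval of the fold, 0.861 to 1.05, leaves out the ANXA1 fold of 1.61. The difference between ANXA1 and ANXA5 itself was not tested. Per kilobase of the matching GENCODE transcript, the base mean was 40513 for ANXA1 (1509 bases), 18406 for ANXA5 (1762 bases) and 92.7 for ANXA10 (1417 bases). The order of these 3 levels is ANXA1, ANXA5 and ANXA10, and the table gives no spread over libraries by which to judge it.

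**Figure D2:**
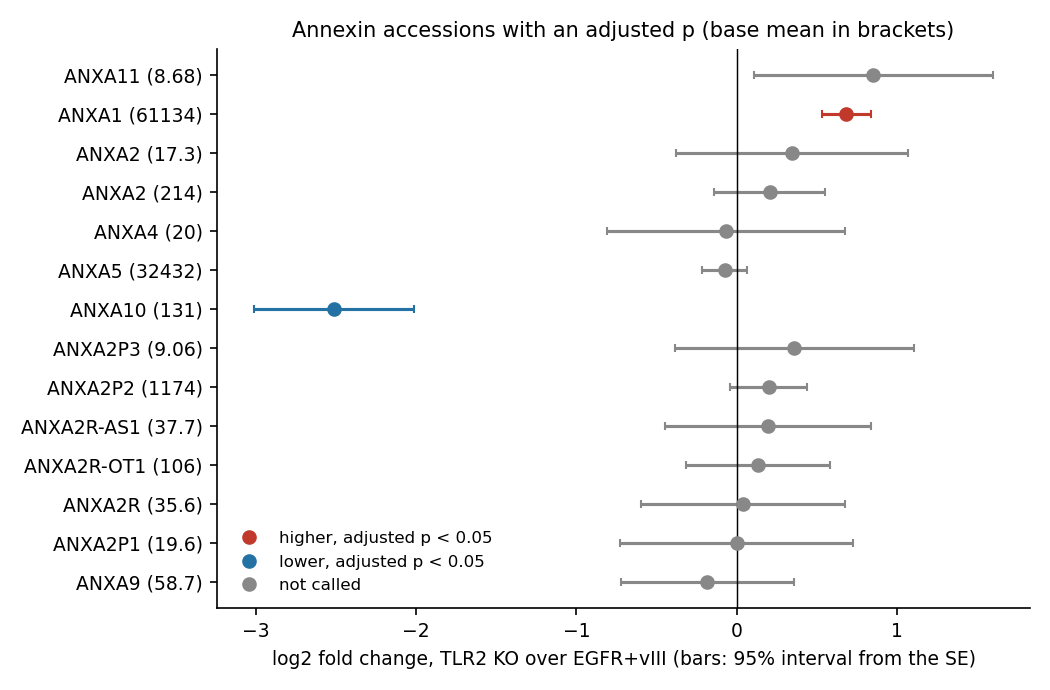
Log2 fold change, knockout over EGFR+vIII, with 95% intervals from the SE, for every annexin accession and annexin relative with an adjusted p in the authors' deposited table; base means stand in brackets, red is called higher, blue lower and grey not called. ANXA10 (-2.51) lies far to the left of the others, and ANXA1 (0.68) is the other called accession.

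The other members with an adjusted p were not called. ANXA2, which with S100A10 forms a tetramer that anchors plasminogen activation at the cell surface, lies on chromosome 15 (60347151 to 60397986). Its leading accession had a log2 change of 0.21 (SE 0.18, adjusted p = 0.480) at a base mean of 214 in the authors' deposited table. The next accession of ANXA2 had 0.34 (SE 0.37) at a base mean of 17.3 in the authors' deposited table. The 95% interval of the fold of the leading accession ran from 0.908 to 1.46, which holds both no change and a rise close to that of ANXA1. ANXA11, an RNA granule and vesicle adaptor on chromosome 10 (80150889 to 80205808), had a log2 change of 0.85 (SE 0.38) at a base mean of 8.68 in the authors' deposited table. Its p was 0.0248 before and 0.0915 after adjustment in the authors' deposited table, so it was not called. ANXA4, an epithelial and secretory annexin on chromosome 2 (69643808 to 69827112), had -0.07 (SE 0.38, adjusted p = 0.941) at a base mean of 19.96 in the authors' deposited table. The interval of its fold, 0.570 to 1.60, shows that neither a fall nor a rise of that size could be told from no change.

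ANXA3, on chromosome 4 (78551770 to 78610447) and known from neutrophil granules, has 1 accession and a base mean of 0.180 in the authors' deposited table, which equals 1 read in 1 of the 6 libraries. It has no adjusted p. Unlike the members with several accessions, ANXA3 has no second accession with which to share reads, and 0 of its 1608 words of 50 bases occur in another gene. ANXA6, an endosomal annexin on chromosome 5 (151100706 to 151157779), is listed at 0 in its 3 accessions. ANXA7, a vesicle fusion annexin on chromosome 10 (73375101 to 73414058), is listed at 0 in its 4 accessions. ANXA8, an annexin of squamous epithelium on chromosome 10 (47467993 to 47991796), is listed at 0 in its 3 accessions, as is its near copy ANXA8L1. Of the words of 50 bases in the ANXA8 transcript, 84.5% also occur in ANXA8L1, so reads of either gene could seldom be assigned. For these 3 members nothing can be said about a change.

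The relatives of the family outside the 10 were looked at for reads that belong to members. ANXA2P2, a processed copy of ANXA2 on chromosome 9 (33624225 to 33625534), had a base mean of 1174 in the authors' deposited table, above the 214 of ANXA2 itself. It shares 59.2% of its 971 words of 50 bases with ANXA2 transcripts, and 41.2% of the words of the leading ANXA2 transcript occur in ANXA2P2. ANXA2P2 had a log2 change of 0.20 (SE 0.12, adjusted p = 0.266) by the authors' deposited table, close in value to the 0.21 of ANXA2. Since reads of the gene and its copy cannot be told apart over those stretches, both values are uncertain. ANXA2P1 (8.10% of words shared) had 0.00 (SE 0.37) and ANXA2P3 (0.730% shared) had 0.36 (SE 0.38) by the authors' deposited table. ANXA9 had -0.18 (SE 0.27) and ANXA2R, a receptor for ANXA2, had 0.04 (SE 0.32) by the authors' deposited table, and ANXA13 was listed at 0. ANXA2R overlaps the antisense gene ANXA2R-AS1 (0.20, SE 0.33, in the authors' deposited table), and without a stated strand their reads cannot be told apart. Of the 7 relatives outside the 10 members, 5 had an adjusted p and 0 were called by the authors' DESeq2 test, nor did any of them pass an unadjusted p of 0.05.

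**Figure D3:**
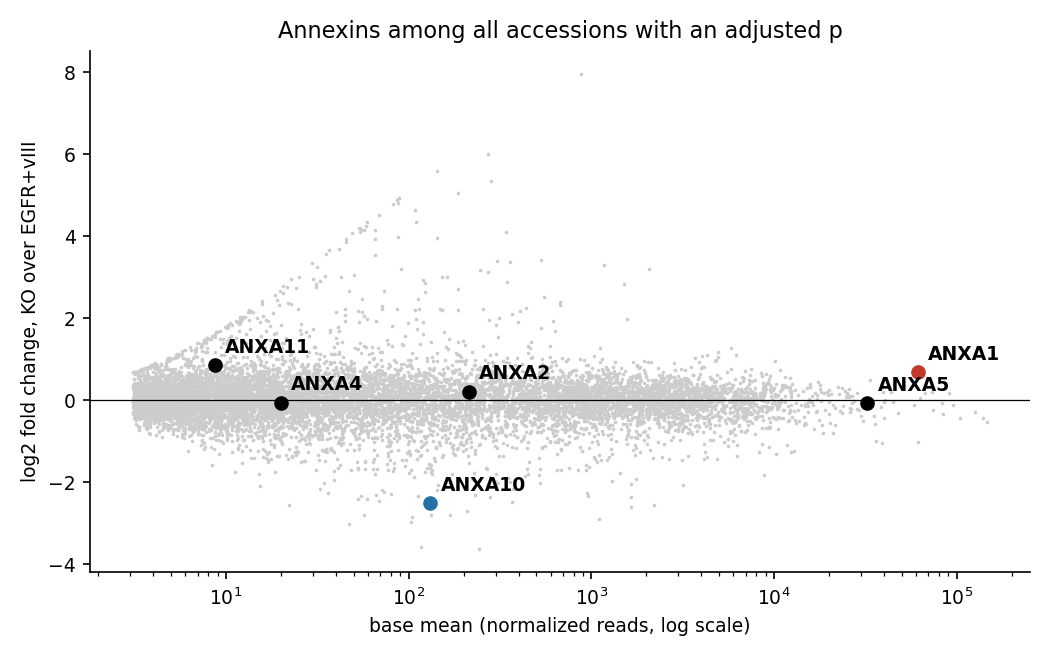
Log2 fold change, knockout over EGFR+vIII, against base mean (normalized reads, log scale) for the 10303 accessions with an adjusted p in grey, with the 6 tested annexin genes marked; red is called higher, blue lower and black not called. ANXA1 and ANXA5 lie at the right edge, with 0.68 and -0.08, and ANXA10 lies near the lower edge at a base mean of 131.

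The promoters of the 3 single-accession members with enough reads are shown because ANXA1 and ANXA10, the members called, differ from ANXA5 in their composition. This contrast was picked after the calls were seen. ANXA1 and ANXA10 went opposite ways, with log2 changes of 0.68 and -2.51. Sequences are those of RefSeq (GRCh38.p14), the 250 bases before the gene start, 5′ to 3′ on the gene's own strand. They lie at chr9:73151615-73151864 (plus strand) for ANXA1, chr4:168092287-168092536 (plus strand) for ANXA10 and chr4:121696981-121697230 (minus strand) for ANXA5. Capitals mark the TATA box TATAAA, the CCAAT box (letters CCAAT) and the GC box GGGCGG, each on either strand.
ANXA1: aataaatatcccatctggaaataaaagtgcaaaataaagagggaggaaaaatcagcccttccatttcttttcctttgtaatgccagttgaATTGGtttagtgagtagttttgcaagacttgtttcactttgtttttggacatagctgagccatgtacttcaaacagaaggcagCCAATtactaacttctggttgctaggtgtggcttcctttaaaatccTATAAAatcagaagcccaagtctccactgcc
ANXA10: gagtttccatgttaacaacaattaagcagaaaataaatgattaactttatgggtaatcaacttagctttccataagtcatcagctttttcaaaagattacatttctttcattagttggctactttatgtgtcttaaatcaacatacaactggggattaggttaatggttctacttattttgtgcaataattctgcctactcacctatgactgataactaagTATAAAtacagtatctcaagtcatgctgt
ANXA5: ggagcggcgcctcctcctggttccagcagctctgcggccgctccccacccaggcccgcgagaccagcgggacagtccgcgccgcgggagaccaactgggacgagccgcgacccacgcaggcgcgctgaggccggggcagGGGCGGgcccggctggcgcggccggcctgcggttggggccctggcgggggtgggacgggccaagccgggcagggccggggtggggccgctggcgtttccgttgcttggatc
RefSeq promoters were matched for 9 of the 10 members, all except ANXA8. The windows of ANXA1 and ANXA10 hold 0 CG pairs, with a GC content of 38.4% and 31.2%. The other 7 windows hold 9 to 36 CG pairs, with a GC content of up to 78.8%. Over all 35116 RefSeq promoters the median was 11 CG pairs and 58.0% GC, and 2127 (6.06%) had no CG pair. TATAAA lies at bases -31 to -26 before the start of ANXA1 and -29 to -24 before ANXA10. It was found in 4 of the 9 windows, ANXA2 (-31 to -26) and ANXA11 (-61 to -56) being the others, and in 10.7% of all promoters. Both features together, no CG pair and a TATAAA, were present in 643 of the 35116 promoters (1.83%). ANXA5 has neither of these, and holds 31 CG pairs and 1 GGGCGG, a motif found in 42.6% of all promoters. The AP-1 motif TGANTCA was found in the ANXA2 window alone (6.57% of all promoters). A match or its lack describes these letters in this window and is not a site. A relation of promoter composition to the fold changes was not tested.

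Position on the chromosome was examined next. For each tested member the 10 nearest tested genes on either side were taken. Around ANXA1, 10 of 20 neighbours were called higher and 2 lower by the authors' deposited table, with a median log2 change of 0.32. The shares of all tested accessions called were 11.6% higher and 11.9% lower. When only the 4308 accessions with a base mean of at least 100 were tested, 979 were called higher. The 8 neighbours with a base mean of at least 100 were all called higher, with values from 0.22 for GNAQ (SE 0.07) and OSTF1 (SE 0.09), through 0.52 for SMC5 (SE 0.07), to 0.70 for ABHD17B (SE 0.13) by the authors' deposited table, genes named after their values were seen. Relative to the neighbours' median, ANXA1 had a log2 change of 0.36 with an adjusted p of 4.25e-05, computed from the authors' DESeq2 values. This p takes the median as fixed and uses the SE of ANXA1 alone, so the spread of the neighbours is left out of it. The rise of ANXA1 thus came with a rise of 10 of the 20 genes around it, which start from -9.34 to 4.56 Mb from its start. RORB (-1.20, SE 0.30, base mean 53.7) and GNA14 (-1.41, SE 0.38, base mean 13.6) were lower. The nearest gene, ALDH1A1, was not called (0.85, SE 0.38, base mean 9.84). The part of these neighbours in the rise of ANXA1 was not tested.

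The genes around ANXA10 all had higher log2 changes than ANXA10 itself. Its 20 neighbours had a median of -0.17, with 3 called higher and 4 lower, and ranged from -1.69 to 1.02 in the authors' deposited table. The lowest of them, NPY1R, had -1.69 (SE 0.28) at a base mean of 66.8, and was named after its value was seen. Among all tested accessions 11.6% were called higher and 11.9% lower. The nearest gene, the antiviral helicase DDX60, had a log2 change of 0.30 (SE 0.09) by the authors' deposited table. Relative to the neighbours' median the log2 change of ANXA10 was -2.34, with an adjusted p of 1.55e-18 computed from the authors' DESeq2 values. ANXA5 had neighbours with a median of -0.25, relative to which its value was 0.18 (adjusted p = 0.0542, from the same DESeq2 values). ANXA11 passed in this setting only among those run, at 0.99 with an adjusted p of 0.0374 from the authors' DESeq2 values. The p-values of ANXA10, ANXA5 and ANXA11 relative to neighbours likewise leave out the spread of the neighbours. Of the members, ANXA3, ANXA5 and ANXA10 share chromosome 4 with TLR2, and ANXA10 starts 14.4 Mb from the start of TLR2.

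**Figure D4:**
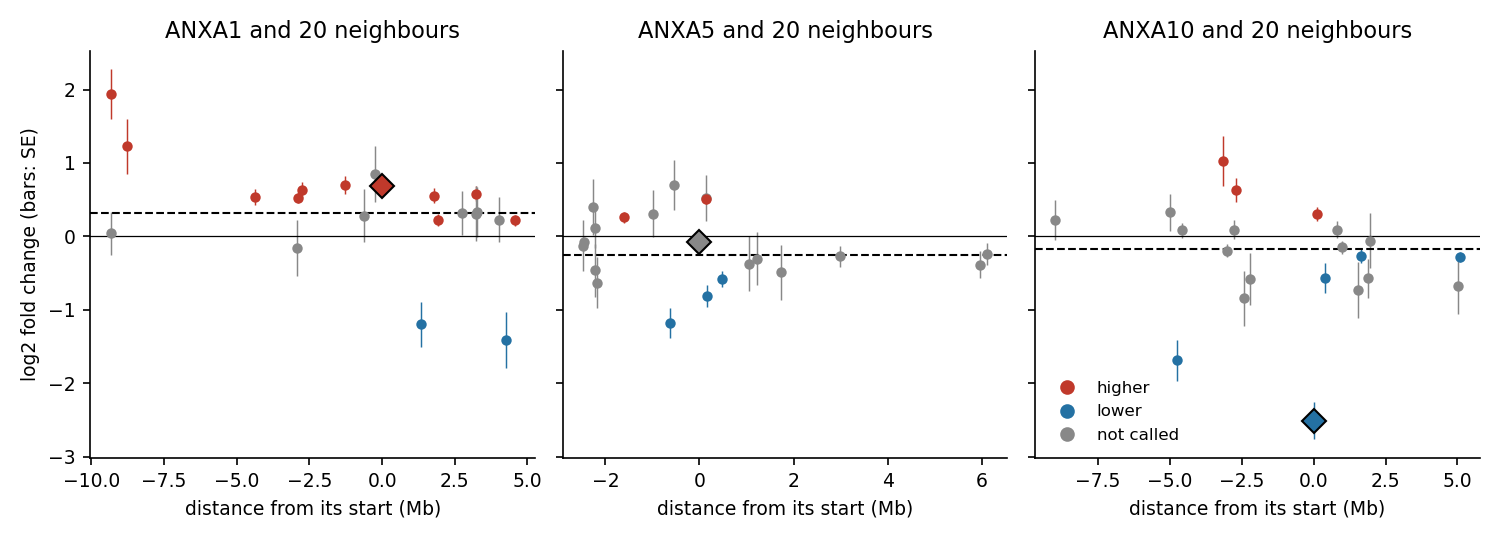
Log2 fold change, knockout over EGFR+vIII, with SE bars, of ANXA1, ANXA5 and ANXA10 (diamonds) and the 10 nearest tested genes on either side (circles), against distance from the member's start in megabases; dashed lines are the neighbours' medians, red is called higher, blue lower and grey not called. ANXA1 lies among neighbours with a median of 0.32, and ANXA10 lies below all of its 20 neighbours.

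The proteins that work with annexins were followed as 8 lists. With each gene counted once, they hold 115 genes, of which 58 carried an adjusted p, the authors' deposited table called 9 higher and 12 lower, and 37 genes were listed at 0. The shares of all tested accessions called are 11.6% higher and 11.9% lower. They stand beside the counts of each list below, and nothing is read from the size of a list's count. The median log2 change of the 58 was 0.00, beside 0.02 for all tested accessions. Of the 19 called partners named below by rule or, for S100A6, as a fixed partner, 13 had a fold above 1.5 in either direction. Of the 19, 3 (EHD4, GAS6 and S100A9) were past 1.5-fold beyond their error, computed from the authors' DESeq2 values. Of the genes named below, S100A8, DYSF, MYOF, EHD1, EHD2, EHD3, AXL, MERTK and TYRO3 fall outside the rule and were chosen after their values were seen.

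S100 proteins are small calcium sensors, several of which clasp an annexin tail. Of 18 genes 9 were tested, 3 higher and 2 lower by the authors' deposited table, with a median of -0.05 on the log2 scale. S100A10, the partner of ANXA2, had a log2 change of -0.05 (SE 0.06, adjusted p = 0.698) at a base mean of 15393 in the authors' deposited table. The 95% interval of its fold, 0.886 to 1.06, leaves out the ANXA1 fold of 1.61. S100A11, the partner of ANXA1, went the other way from ANXA1 with a log2 change of -0.27 (SE 0.09, adjusted p = 0.0175) at a base mean of 3284 in the authors' deposited table. S100A6, which binds ANXA2 and ANXA11, rose by 0.20 (SE 0.08, adjusted p = 0.0418) at a base mean of 73520 in the authors' deposited table. S100A9, a subunit of the neutrophil protein calprotectin, rose by 2.19 (SE 0.38, adjusted p = 1.42e-07) by the authors' deposited table at a base mean of only 13.5, while its partner S100A8 was listed at 0 in every accession. S100A3 rose by 0.95 (SE 0.13) and S100Z was lower at -0.76 (SE 0.23) by the authors' deposited table. S100A4, known to promote cell motility, has 2 accessions, and the higher of them had a base mean of 0.174 in the authors' deposited table, which equals 1 read.

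The penta-EF-hand and ESCRT list holds the calcium sensors that bind ANXA7 and ANXA11 and the complexes that cut membranes. Of 17 genes 11 were tested, 2 higher and 1 lower by the authors' deposited table. PDCD6, which encodes the sensor also called ALG-2, has 6 RefSeq transcripts, and that with the highest base mean is non-coding. This transcript rose by 1.12 (SE 0.32, adjusted p = 0.00291) at a base mean of 38.4 in the authors' deposited table. Its value may not describe the coding transcripts of PDCD6. CAV1, AHNAK2, PLA2G4A and PLAAT3 below also have several transcripts, and each is read from that with the highest base mean. VPS37C, an ESCRT subunit, rose by 0.62 (SE 0.13) and VPS4B, the ATPase that takes ESCRT filaments apart, was at -0.25 (SE 0.08) by the authors' deposited table. SRI, the partner sorcin, was listed at 0 in its 4 accessions.

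The membrane repair list had 2 of 10 tested genes higher and 4 lower by the authors' deposited table. EHD4, an endosomal ATPase, rose by 0.93 (SE 0.09, adjusted p = 5.39e-24), and FER1L6, a ferlin, was at -1.09 (SE 0.19, adjusted p = 8.26e-08) by the authors' deposited table. Among the relatives of EHD4, EHD2 was lower at -0.60 (SE 0.09), EHD3 was lower at -0.37 (SE 0.11), and EHD1 was not called at 0.25 (SE 0.32) by the authors' deposited table. CAV1, the caveolar coat protein, had 0.66 (SE 0.22, adjusted p = 0.0158) and AHNAK2 had -0.87 (SE 0.33, adjusted p = 0.0368) by the authors' deposited table. AHNAK, the giant scaffold that ANXA2 and S100A10 bring to the membrane, had -0.22 (SE 0.24, adjusted p = 0.603) by the authors' deposited table. The ferlins DYSF and MYOF were listed at 0 in every accession.

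Phosphatidylserine is a lipid that annexins recognise. The list of its exposure and recognition had 0 of 11 tested genes higher and 3 lower by the authors' deposited table, with a median of -0.30. The shares over all tested accessions were 11.6% and 11.9%. Only 4 of the 23 listed genes had a base mean of at least 100. In the 1.5-fold test 1 gene stayed lower, as it did with scaled Wald scores. GAS6, a bridging ligand between phosphatidylserine and the TAM receptor kinases, was lower with a log2 change of -1.39 (SE 0.10, adjusted p = 1.26e-44) at a base mean of 1252 in the authors' deposited table. ATP11B, a P4-ATPase of the lipid flippase family, was lower at -0.30 (SE 0.08, adjusted p = 0.000701), and STAB1, a phosphatidylserine receptor, at -0.96 (SE 0.37, adjusted p = 0.0410) with a base mean of 7.42, in the authors' deposited table. Of the TAM receptors, AXL and MERTK carry no adjusted p, and TYRO3 had 0.00 (SE 0.34) by the authors' deposited table.

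The formyl peptide receptors of ANXA1, FPR1 and FPR2, were listed at 0 in their 2 accessions each. In that list 2 of 9 genes were tested, and they went opposite ways in the authors' deposited table: PLA2G4A, the cytosolic phospholipase A2, was at -0.96 (SE 0.38, adjusted p = 0.0465), and PLAAT3, another phospholipase, at 1.01 (SE 0.38, adjusted p = 0.0339). Both have base means under 20. In the surface plasmin list, 0 of 8 tested genes were called by DESeq2 in the authors' deposited table. PLAT, the plasminogen activator that ANXA2 binds, was listed at 0 in its 3 accessions. Copines, another family of calcium-dependent membrane-binding proteins, had 1 of 4 tested genes higher, CPNE8 at 0.23 (SE 0.09), and 1 lower, CPNE2 at -0.52 (SE 0.11), in the authors' deposited table.

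**Figure D5:**
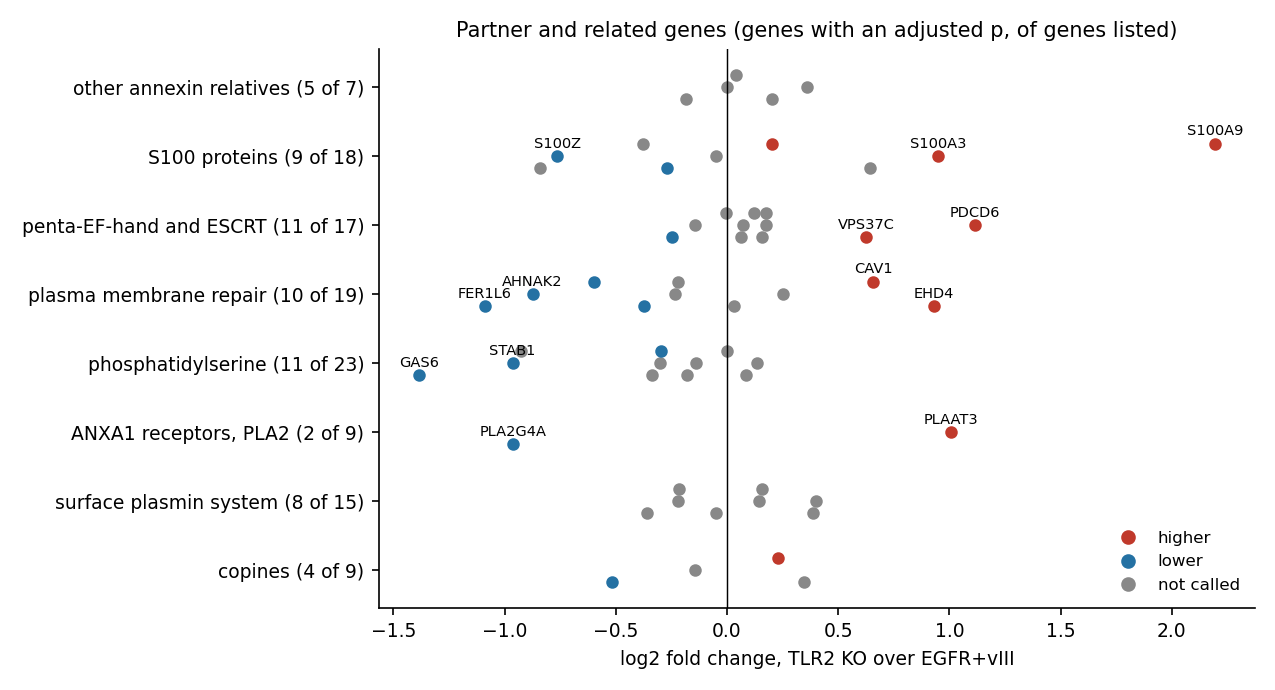
Log2 fold change, knockout over EGFR+vIII, of the partner and related genes with an adjusted p in the authors' deposited table, by list, with the number tested of the number listed in brackets; red is called higher, blue lower and grey not called, and called genes past 0.6 on either side are named. S100A9 (2.19) and GAS6 (-1.39) lie farthest out, and the surface plasmin list has no called gene.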

How the data were processed

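RNA of U87 cells was sequenced in 6 libraries, 3 per group, and groups were taken from the cell type in the labels. The submitters' processing notes name STAR, DESeq2 and hg38 and give no version. The columns of the authors' table, per the file headers, are a base mean (a signal of abundance), a log2 fold change with its SE on the log2 scale, a Wald score, a p-value and an adjusted p-value. A count test needs counts per library, so the authors' adjusted p under 0.05 was used.

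Accessions were matched to genes with a RefSeq table of GRCh38.p14, the build of hg38 (98.8% matched). Sequences came from GENCODE 29 and RefSeq. Intervals are the log2 fold change plus or minus the normal 95% range of its SE. Further adjusted p-values were computed in Python 3.11.15 with scipy 1.17.1 and tested on simulated data. The members and lists were chosen with earlier results of these data known. Genes named are the members, 10 fixed partners and, per list, the 4 called genes with the largest change; others are marked in the text.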

Additional observations from a re-analysis of the deposited data

How the results depend on the processing

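Among the 6 tested annexins, ANXA10 stayed called lower and ANXA1 kept its direction in the 7 alternatives run. The count of annexins called higher fell to 0 when the test asked for a change of more than 1.5-fold. It rose to 2 (ANXA1 and ANXA11) relative to the median of neighbouring genes, which was taken as free of error. Over the partner lists, 9 genes higher and 12 lower became 2 and 1 in the 1.5-fold test, and 3 and 3 when Wald scores were divided by their central spread (1.75). Of 19 called partners named here, the 1.5-fold test left EHD4, GAS6 and S100A9, and the scaled scores left those and FER1L6 and S100A3, by the authors' DESeq2 values. S100A6, PLA2G4A, PLAAT3 and STAB1 lost their call both without a filter on low values (with AHNAK2 and CPNE8) and relative to neighbours (with VPS37C and VPS4B), which left 13 of the 19 each time. Over all tested accessions 2417 calls became 408 in the 1.5-fold test and 890 with scaled scores. No paired analysis was possible because the table gives no value per library. For the same reason leaving out replicates and other count models were not run. Few or no reads are listed for ANXA3, ANXA4, ANXA6, ANXA7, ANXA8 and ANXA11, and the cause was not tested.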
